A study of Mus musculus with 2 samples.

Results

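The Sp100, Sp110 and Sp140 gene cluster lies between 85 and 86 Mb of mouse chromosome 1 (build mm10). DNA N6-methyladenine (6mA), an adenine with a methyl group on its exocyclic nitrogen, was assayed there by MeDIP-seq, in which an antibody pulls down modified DNA fragments for sequencing. All deposited peaks with a midpoint inside this 1 Mb window were taken, which gave 48 of 1006 peaks at embryonic day 8.5 (E8.5) and 50 of 1239 at embryonic day 9.5 (E9.5), 98 of 2245 in all. The window was chosen because earlier results on the same lists had shown many peaks in it, so the counts, pileups, folds and overlaps of its peaks are given as a description and none was tested. The 9 member genes are the protein-coding genes Sp100, Sp110, Sp140, A530032D15Rik, C130026I21Rik, Gm7592, Gm7609, Gm2427 and Gm38510. Cab39, Itm2c and Gpr55, named as single-copy neighbours when the window was chosen, served for comparison, and their copy number was not measured here.

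The series set out to locate 6mA in the developing brain, in work on neural tube closure. Both libraries came from brain labelled as untreated, 1 for E8.5 and 1 for E9.5, and the labels state neither strain, sex nor the number of embryos behind a library. Embryos of mothers on a low-folate diet injected with methotrexate, a folate antagonist, also belong to the study's design and were not analysed here. After duplicate filtering the E8.5 library held 15375941 fragments and the E9.5 library 15349825, and both peak lists were called against the same input of 9603633 fragments. The stage of that input is not stated in the sources used here. The file headers give a fragment size of 256 bp for the E8.5 library and 271 bp for the other, and pileups were not rescaled for it. With 1 library per stage nothing could be tested between stages. Intervals are exact, at 95%, and include counting error alone, and PCR copies of a fragment are not independent molecules. A brain sample cannot be checked against marker genes in data of this kind.

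Sp100 is a core protein of PML nuclear bodies, the nuclear dots in which many SUMO-modified proteins gather. Sp110 and Sp140 are its relatives, and all can carry a DNA-binding SAND domain and are induced by interferon. In mouse, Sp110 (also called Ipr1) lies in a locus that affects susceptibility to tuberculosis. The same part of mouse chromosome 1 holds repeated copies of sequence related to Sp100, which in some wild mice have expanded to a block visible under the microscope. No function is assigned here to the RIKEN and Gm members, which are predicted or uncharacterised genes.

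The members are partly copies of each other, and their promoters show how alike the copies are. RefSeq promoters of GRCm38.p6, the assembly called mm10, run from 250 bases before to 50 bases after a gene start and were available for 7 of the 9 members, not for Gm38510 and Gm7592. Sp100 and Sp110 have 2 each, and the long non-coding gene A530040E14Rik, which overlaps A530032D15Rik, adds 1, for 10 promoters in all. The promoters of Sp140, A530032D15Rik and C130026I21Rik share a block of 255 bases that differs at 1 position among the 3, shown in capitals. The blocks lie at chr1:85600460-85600714 on the plus strand (Sp140), chr1:85109813-85110067 on the minus strand (A530032D15Rik) and chr1:85270517-85270771 on the minus strand (C130026I21Rik), and are written 5′ to 3′.
Sp140: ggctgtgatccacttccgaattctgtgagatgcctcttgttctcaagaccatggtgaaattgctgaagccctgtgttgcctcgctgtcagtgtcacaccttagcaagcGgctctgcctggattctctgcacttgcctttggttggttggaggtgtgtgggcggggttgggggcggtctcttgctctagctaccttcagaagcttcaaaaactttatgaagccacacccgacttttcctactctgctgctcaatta
A530032D15Rik: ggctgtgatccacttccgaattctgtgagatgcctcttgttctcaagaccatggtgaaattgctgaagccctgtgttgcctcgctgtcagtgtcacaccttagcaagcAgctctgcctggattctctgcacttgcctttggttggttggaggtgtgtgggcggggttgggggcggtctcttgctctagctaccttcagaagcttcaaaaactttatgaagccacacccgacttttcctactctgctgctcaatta
C130026I21Rik: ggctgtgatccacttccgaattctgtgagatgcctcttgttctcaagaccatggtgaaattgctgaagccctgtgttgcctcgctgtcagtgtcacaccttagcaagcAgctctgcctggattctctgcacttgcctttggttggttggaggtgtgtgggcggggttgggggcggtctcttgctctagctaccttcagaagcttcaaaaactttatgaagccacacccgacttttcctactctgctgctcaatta

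A different promoter is shared by Sp100 and Gm7609. Over 298 aligned bases, 293 were identical (98.3%), with 5 substitutions, in capitals, and no gap. The Sp100 block lies at chr1:85649766-85650063 and the Gm7609 block at chr1:85199361-85199658, both on the plus strand.
Sp100: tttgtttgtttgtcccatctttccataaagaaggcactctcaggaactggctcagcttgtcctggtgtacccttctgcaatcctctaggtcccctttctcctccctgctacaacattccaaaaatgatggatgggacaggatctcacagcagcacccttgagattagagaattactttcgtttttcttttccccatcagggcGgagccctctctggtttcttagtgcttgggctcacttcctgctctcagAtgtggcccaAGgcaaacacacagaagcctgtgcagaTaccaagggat
Gm7609: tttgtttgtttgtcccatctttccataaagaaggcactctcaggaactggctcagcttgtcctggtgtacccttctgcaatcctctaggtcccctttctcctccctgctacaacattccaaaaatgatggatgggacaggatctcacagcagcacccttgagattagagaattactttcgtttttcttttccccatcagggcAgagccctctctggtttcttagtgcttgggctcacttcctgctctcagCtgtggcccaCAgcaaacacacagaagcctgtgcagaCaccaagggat

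Of the 45 promoter pairs in the cluster, 6 aligned over at least 100 bases, all of them within these groups or between the overlapping promoters of Sp100, and the other 39 aligned over at most 79 bases. Fragments that fall inside such blocks differ at few or no positions between copies. The sources used here do not say how the authors placed reads that match several copies, and whether fragments could be assigned to 1 copy was not tested. None of the 10 promoters held the core of the interferon-stimulated response element (GAAA, any 2 bases and GAAA again) on either strand, against 3.44% of 32851 promoters genome-wide. None held TTCNNNGAA, the element bound by STAT factors, which is its own reverse complement, against 8.30%. This says only that these letters do not occur in the 10 stretches.

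The peaks filled the left part of the window and stopped at the 5′ end of Sp100. The first peak began at 85005002 in E8.5 brain and 85004959 in E9.5 brain, the last ended at 85651796 and 85651699, and the remaining 348 kb of the window held no peak at either stage. On the left the window's edge did not mark an end, since the next peaks outside it lay at 84990826 to 84991141 at E8.5 (pileup 19, fold 2.04) and 84990839 to 84991421 at E9.5 (pileup 21, fold 1.93), and the first peaks inside it had pileups of 27 and 24 and folds of 3.11 and 2.77. To the right, the next peak on the chromosome was 902 kb away in the E8.5 list and 1083 kb in the E9.5 list. Inside the peak-bearing part the median gap between neighbouring peaks was 5.61 kb in E8.5 brain and 7.35 kb in E9.5 brain. The longest gap lay inside Gm7592 at both stages, 128 kb from 85339436 at E8.5 and 110 kb from 85344234 at E9.5. Whether the assembly holds unsequenced bases there was not examined.

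**Figure D1:**
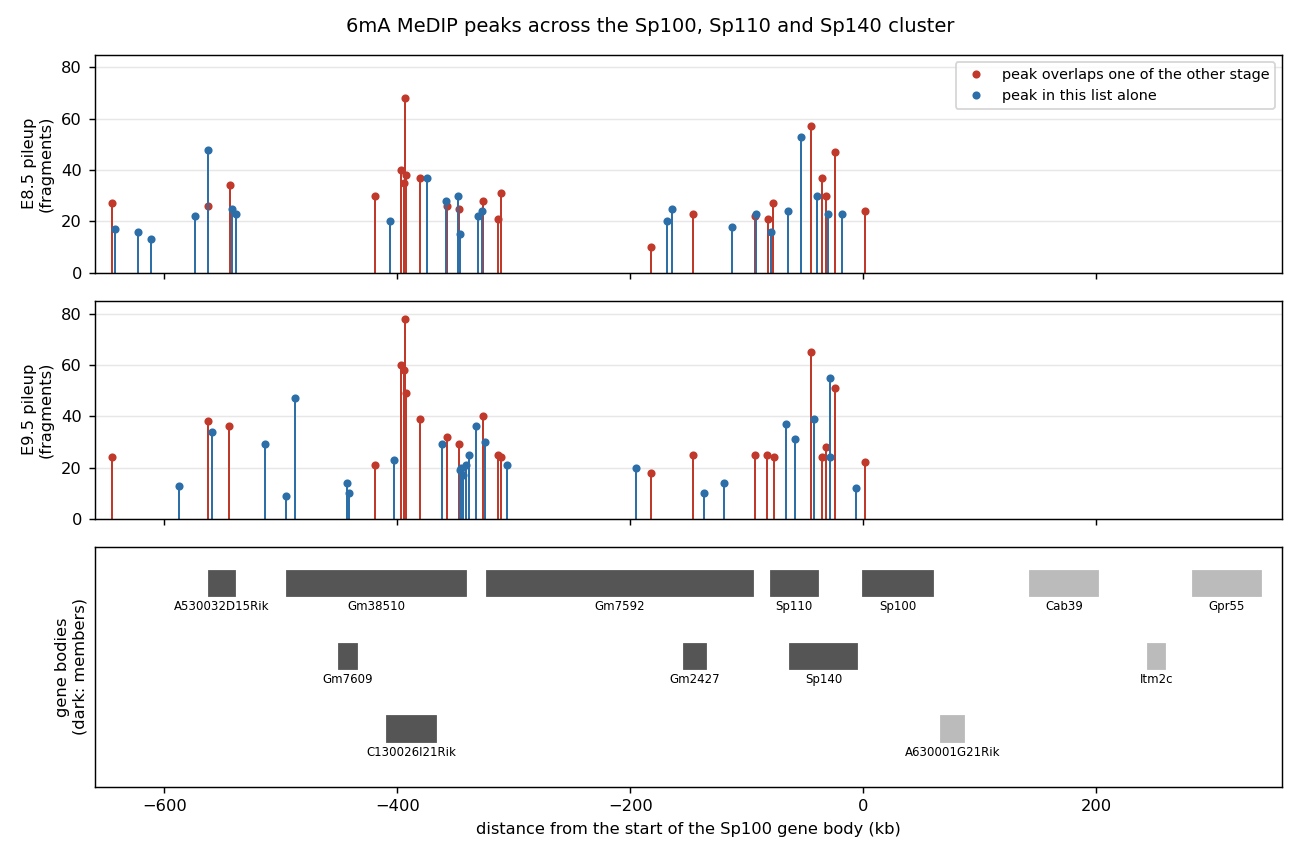
Pileup (fragments at the summit, y axis) of each peak against its distance from the start of the Sp100 gene body (kb, x axis) at E8.5 (top, 48 peaks) and E9.5 (middle, 50 peaks), with gene bodies below. Red peaks overlap a peak of the other stage and blue peaks do not, and none lies to the right of the first part of Sp100.

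Of the members, 8 held a peak in the body or within 2 kb of it at E8.5 and all 9 at E9.5, the missing one being Gm7609. Over all 21883 protein-coding genes the share with a peak was 0.964% in E8.5 brain and 1.20% in E9.5 brain, and since peaks chose the window nothing is read from that difference. Peaks in members made up 38 of 48 on the E8.5 list and 44 of 50 on the E9.5 list, and 11 and 13 of them met more than 1 member because Gm7609 and C130026I21Rik lie inside Gm38510, Gm2427 lies inside Gm7592, and Sp110 overlaps Sp140. The other 10 and 6 peaks lay outside the members, and 4 and 3 of these had no RefSeq gene within 2 kb. Cab39, which encodes a scaffold of the LKB1 kinase complex, lay 142 kb from the nearest peak at both stages. Itm2c, which encodes a small membrane protein, lay 243 kb away, and Gpr55, which encodes a lipid-sensing receptor, 281 kb in E8.5 brain and 282 kb in E9.5 brain. The remaining protein-coding gene of the window, A630001G21Rik, lay 65.3 and 65.4 kb from the nearest peak. Each of these 4 genes lies to the right of Sp100.

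**Figure D2:**
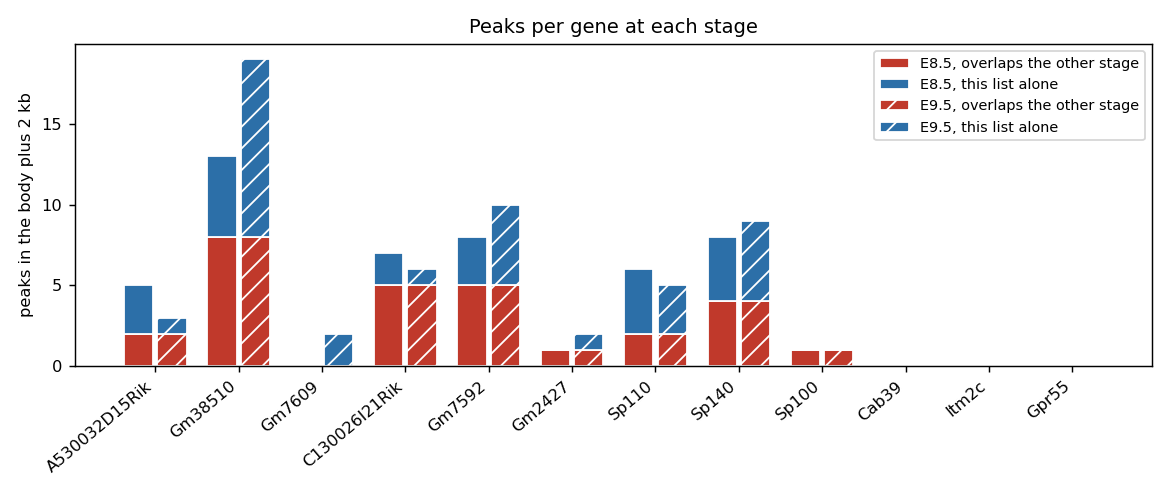
Number of peaks (y axis) in each gene body extended by 2 kb for the 9 members and 3 neighbours, with plain bars for E8.5 and hatched bars for E9.5, split by whether the peak overlaps one of the other stage. Gm38510 has the tallest bars, 13 and 19, and the 3 neighbours have none.

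Sp100, the nuclear body gene, carried 1 peak per stage, and these had the highest folds of the window. At E8.5 the peak ran from 85651025 to 85651796 with a pileup of 24 fragments (interval 15.4 to 35.7), a fold enrichment of 5.95 and a q of 3.33e-09. At E9.5 it ran from 85651406 to 85651699 with 22 fragments at its summit (13.8 to 33.3), a 5.47-fold enrichment and q = 1.50e-07. The intervals of the pileups overlapped, and the summits lay 22 bp apart. The fold is the authors' value, the pileup over the local background with 1 added to each, and the background recovered from it was 3.20 and 3.21 fragments, close to the lowest value of each library, 3.05 and 3.14. Measured from the gene start nearest to the block printed above, the peak covered bases 1011 to 1782 downstream at E8.5 and 1392 to 1685 at E9.5. No other peak lay in Sp100, whose body continues for 58.2 kb beyond the E8.5 peak. Gm7609, whose promoter differs from that of Sp100 at 5 of the 298 bases, had no E8.5 peak within 31063 bp of that promoter and its nearest E9.5 peak 6968 bp away. That peak (85206628 to 85206989) had 14 fragments at its summit (7.65 to 23.5), a 3.62-fold enrichment and q = 0.0864, and a second E9.5 peak in Gm7609 had a pileup of 10, a fold of 2.66 and a q of 1.

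Sp110, the interferon-induced relative of Sp100, held 6 peaks in E8.5 brain and 5 in E9.5 brain, with pileups from 16 to 57 and from 24 to 65. The gene is read from the minus strand, and its highest fold lay near the 3′ end at both stages. That peak ran from 85572454 to 85572884 in E8.5 brain, with a pileup of 27 (17.8 to 39.3) and a fold of 4.24 (q = 2.98e-06), and from 85572537 to 85573312 at E9.5, with a pileup of 24 (15.4 to 35.7) and a fold of 3.79 (q = 2.16e-04). Upstream of the outer Sp110 promoter, but inside the annotated bodies of Sp110 and Sp140, lay the pair with the largest background of the window. It ran from 85605120 to 85605682 at E8.5, with backgrounds of 36.0 and 36.8 fragments. Its pileups were 57 and 65 and its folds 1.57 and 1.75, the lowest mean fold of all pairs. Divided by the depth ratio of pull-down to input, that background amounts to 22.5 and 23.0 input fragments.

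Sp140, the third named relative, held 8 peaks in E8.5 brain and 9 in E9.5 brain, of which 4 per stage had a partner. The E8.5 peak from 85614067 to 85614883 had 37 fragments at its summit (26.1 to 51.0), a 4.38-fold enrichment and q = 1.29e-09, and its E9.5 partner 24 fragments at its summit (15.4 to 35.7), a 2.75-fold enrichment and q = 0.0981. This pair had the lowest ratio of E9.5 to E8.5 pileup among the pairs, 0.649, and the intervals of its pileups overlapped. The highest fold at E9.5 was 2.94, for a peak from 85625386 to 85625752 with a pileup of 51 (38.0 to 67.1), whose E8.5 partner had a pileup of 47 (34.5 to 62.5) and a fold of 2.83. The E8.5 peak had a q of 1.68e-05 and the E9.5 peak one of 6.76e-07. No peak lay within 3750 bp of the Sp140 promoter at E8.5 or within 4228 bp at E9.5.

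The copies that share the Sp140 promoter block differed in where their nearest peaks lay. In C130026I21Rik a peak covered bases 612 to 1008 downstream of the gene start at E8.5 (pileup 37, fold 2.04) and 605 to 964 at E9.5 (pileup 39, fold 1.98). In A530032D15Rik the nearest E8.5 peak lay 1329 bp from the promoter, on its upstream side (pileup 23, fold 2.10), and the nearest E9.5 peak 3918 bp from it. Thus C130026I21Rik was the member of this group with a peak within 1 kb of the printed block, in both lists. Its peaks there had q-values of 0.957 (E8.5) and 0.906 (E9.5), so neither reached a q of at most 0.05. The named E8.5 peak of A530032D15Rik did not reach it, and the named E9.5 peak did (q = 7.14e-04). Whether the copies differ in peak position was not tested. How far beyond the printed blocks the copies are alike was not examined, because no genome sequence was used.

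C130026I21Rik held 7 peaks in E8.5 brain and 6 in E9.5 brain, of which 5 per stage had a partner. Its pileups were the highest of the window, with a group of 4 neighbouring pairs within 5 kb at pileups of 35 to 68 at E8.5 and 49 to 78 at E9.5. The strongest of these (85256332 to 85256672 at E8.5) had 68 fragments at its summit (52.8 to 86.2), a 2.76-fold enrichment and q = 1.47e-08 at E8.5, and 78 fragments at its summit (61.7 to 97.3), a 2.97-fold enrichment and q = 5.27e-12 at E9.5. The background under it was 24.0 and 25.6 fragments, so its fold stayed below that of Sp100 although its pileup was higher. Each of these 4 pairs had more fragments at E9.5 than at E8.5, and the intervals of each pair overlapped. For the pair from 85255233 to 85255803 at E8.5, pileups of 35 and 58 lay on backgrounds of 20.7 and 33.6, with folds of 1.66 and 1.71. The summits of that pair lay 307 bp apart, and neither of its peaks reached a q of at most 0.05. The pair starting at 85252863 at E8.5 reached it at E9.5 alone (q = 8.42e-06). The remaining pairs of the group reached it at both stages.

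Gm38510, which encloses C130026I21Rik and Gm7609, held 13 peaks in E8.5 brain and 19 in E9.5 brain, of which 6 and 11 met no other member. Its highest fold at E8.5 belonged to a peak from 85230723 to 85231090 with a pileup of 30 (20.2 to 42.8) and a fold of 3.44 (q = 1.01e-04), whose E9.5 partner had a pileup of 21 (13.0 to 32.1) and a fold of 2.45 (q = 1). At E9.5 the highest fold of Gm38510 was the peak in Gm7609 described above. A further pair (85302365 to 85302780 at E8.5) had pileups of 25 and 29 and folds of 2.89 and 3.57. Between Gm38510 and Gm7592, the transcribed pseudogene Gm2619 held 3 peaks per stage, 1 of them a pair (85323337 to 85323888 at E8.5) with pileups of 28 and 40 and folds of 2.84 and 3.81.

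Gm7592, with a body of 228850 bp the longest member, held 8 peaks in E8.5 brain and 10 in E9.5 brain, or 3.44 and 4.29 per 100 kb of the extended body, fewer than any other member with a peak in both lists except Sp100 (1.56 and 1.56). Its peak from 85556543 to 85556946, just outside the annotated body, had 22 fragments at its summit (13.8 to 33.3), a 4.74-fold enrichment and q = 6.24e-06 at E8.5, and its partner 25 fragments at its summit (16.2 to 36.9), a 5.13-fold enrichment and q = 7.04e-08 at E9.5. A second pair with a fold above 3 at E8.5 (85338246 to 85339436) had a fold of 3.59 in E8.5 brain and 2.55 in E9.5 brain. Its q-values were 2.06e-05 (E8.5) and 0.317 (E9.5). The summits of this pair lay 929 bp apart, the largest distance of all pairs, so the 2 folds belong to different positions. Gm2427, which lies inside Gm7592, shared with it a pair starting at 85503841 at both stages, with pileups of 23 and 25 and folds of 2.45 and 2.82, and held 1 more E9.5 peak with a pileup of 10. Between Gm7592 and Sp110 a pair outside the members (85567597 to 85568368 at E8.5) had pileups of 21 and 25 and folds of 2.97 and 3.52.

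A530032D15Rik, at the left end of the members, held 5 peaks in E8.5 brain and 3 in E9.5 brain, and its highest fold at each stage lay on the promoter of A530040E14Rik. This long non-coding gene runs on the plus strand, opposite to A530032D15Rik. The E8.5 peak (85105553 to 85106356) covered all 300 bases of that promoter, with 34 fragments at its summit (23.5 to 47.5), a 2.69-fold enrichment and q = 0.00692. The E9.5 peak (85105363 to 85105886) covered its first 44 bases, with 36 fragments at its summit (25.2 to 49.8), a 2.85-fold enrichment and q = 7.14e-04. Counted from the gene start, with upstream positions negative, the summits lay at -357 and -312, outside the 300 bases. Of all 32851 promoters, 5 (0.0152%) overlapped a peak of the E8.5 list and 6 (0.0183%) one of the E9.5 list, and the promoters of 2 genes did so in both lists, A530040E14Rik and Gm46074 on chromosome 8. The promoter, chr1:85105843-85106142 on the plus strand, is shown with the bases inside the E9.5 peak in capitals.
A530040E14Rik: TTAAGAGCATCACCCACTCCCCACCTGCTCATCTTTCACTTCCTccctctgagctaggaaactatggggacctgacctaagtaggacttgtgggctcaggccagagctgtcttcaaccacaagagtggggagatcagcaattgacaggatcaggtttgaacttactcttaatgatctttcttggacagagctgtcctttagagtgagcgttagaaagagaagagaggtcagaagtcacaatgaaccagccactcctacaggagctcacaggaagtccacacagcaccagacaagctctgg

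Many of the window's peaks recurred between the stages. At E8.5, 24 of 48 peaks (50%, interval 35.2% to 64.8%) shared 1 bp or more with an E9.5 peak, and at E9.5, 24 of 50 (48%, 33.7% to 62.6%) did so with an E8.5 peak, against 27.9% and 22.8% over all peaks of the lists. The rule that chose the window used peak counts of both lists, and both lists share 1 input, so this difference is a description. Of the 24 pairs, 21 met a member. In 17 pairs the pileup was higher at E9.5 and in 7 at E8.5, with a median E9.5 to E8.5 ratio of 1.14 and a range from 0.649 to 1.80, without allowance for the longer fragments of the E9.5 library. The intervals overlapped in all 24 pairs, which does not show that the pileups of a pair were equal, and no difference was tested. Over the pairs, pileups correlated with a Spearman rho of 0.657 and a Pearson r of 0.795 on the log2 scale, and folds with a Spearman rho of 0.699 (n = 24). The pairs share their position and the input, and the backgrounds correlated with a rho of 0.970. The distance between paired summits was 46 bp at the median and 929 bp at most. Paired peaks had a median pileup of 29 on the E8.5 list and 28.5 on the E9.5 list, and unpartnered peaks 23 and 22. Paired peaks were also longer, with medians of 484 and 498 bp against 328 and 324.5 bp, and a longer peak meets another more easily.

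**Figure D3:**
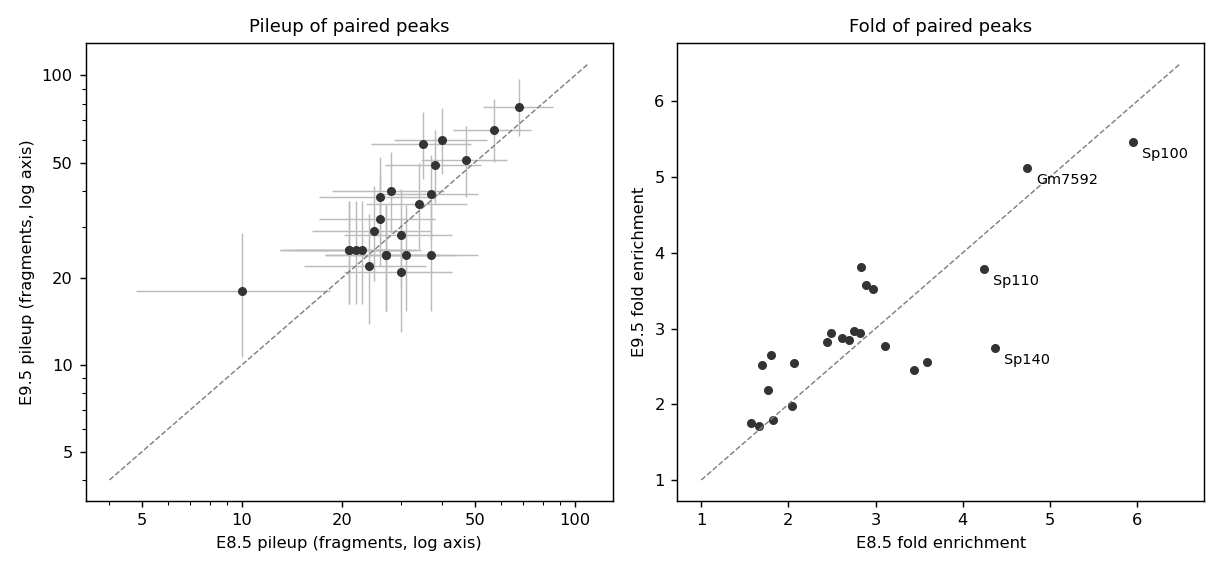
Left, pileup of the 24 paired peaks at E8.5 (x axis) and E9.5 (y axis), in fragments on log axes, with exact 95% Poisson intervals as bars. Right, fold enrichment of the same pairs, with the 4 pairs of highest mean fold named by gene. The dashed line marks equal values, and 17 pairs lie above it for pileup.

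A q of at most 0.05 was reached by 16 of the 48 E8.5 peaks (33.3%, interval 20.4% to 48.4%) and by 15 of the 50 E9.5 peaks (30%, 17.9% to 44.6%), against 12.8% of all peaks in each list. Of these, 13 per stage had a partner, and 9 pairs passed at both stages. The 5 that passed without a partner lay in 3 genes. At E8.5 they were a peak at the 3′ flank of A530032D15Rik (85087476 to 85087783, pileup 48, interval 35.4 to 63.6, fold 2.47), a peak where Sp110 and Sp140 overlap (85596116 to 85596703, pileup 53, 39.7 to 69.3, fold 2.97) and a peak in Sp140 (85631287 to 85631544, pileup 23, 14.6 to 34.5, fold 3.32). At E9.5 they were a peak in Sp110 (85582958 to 85583521, pileup 37, 26.1 to 51.0, fold 2.35) and a peak in Sp140 (85621608 to 85622024, pileup 55, 41.4 to 71.6, fold 2.36).

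What a library would have needed for a call was computed for the unpartnered peaks, and is given for the 5 with a q of at most 0.05. For the 988 E8.5 and 1221 E9.5 peaks checked, those with pileups under 500, the deposited p-values equal the Poisson chance of a pileup above the observed one given the background, with a largest difference of 0.000121 in E8.5 brain and 0.000190 in E9.5 brain on the −log10 scale. At the authors' p of 0.01, and with the background of the 5 unpartnered peaks above, the other library would have needed pileups of 30, 27, 13, 25 and 35 to be listed, in the order given. Each of these lies below the lower limit of the pileup observed in the library with the peak. The 5 peaks were picked by a q of at most 0.05, a stricter filter than the p of 0.01, so this follows largely from their choice. For most of the other unpartnered peaks the needed pileup lay above that limit. Whether the stages differ at any of these peaks was not tested. The peak at the 3′ flank of A530032D15Rik lay 267 bp from an E9.5 peak, and the others between 1613 and 5535 bp from the nearest peak of the other stage.

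Most of the window's peaks lay on a raised background, with those of Sp100 and Gm7609 among the exceptions. The median background of the window's peaks was 9.87 fragments in E8.5 brain (7.63 to 13.8 between quartiles) and 9.65 in E9.5 brain (7.09 to 16.0), against 3.20 at both stages over all peaks, and the median pileup was 25 at both stages against 11. At these medians a peak needed 18 fragments to be called, against 8 at the lowest background. No E8.5 peak of the window and 2 E9.5 peaks, both in Gm7609, had the library's lowest background, against 46.3% and 48.7% of all peaks. The median fold was 2.48 and 2.45, against 2.62 and 2.65 over all peaks. Across the window's peaks, pileup and background correlated with a Spearman rho of 0.706 (n = 48) and 0.874 (n = 50), and fold and background with -0.617 and -0.550. The first relation is fixed in part by peak calling, since the pileup needed for a call rises with the background, and fold contains the background by construction. Copy number was not measured.

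**Figure D4:**
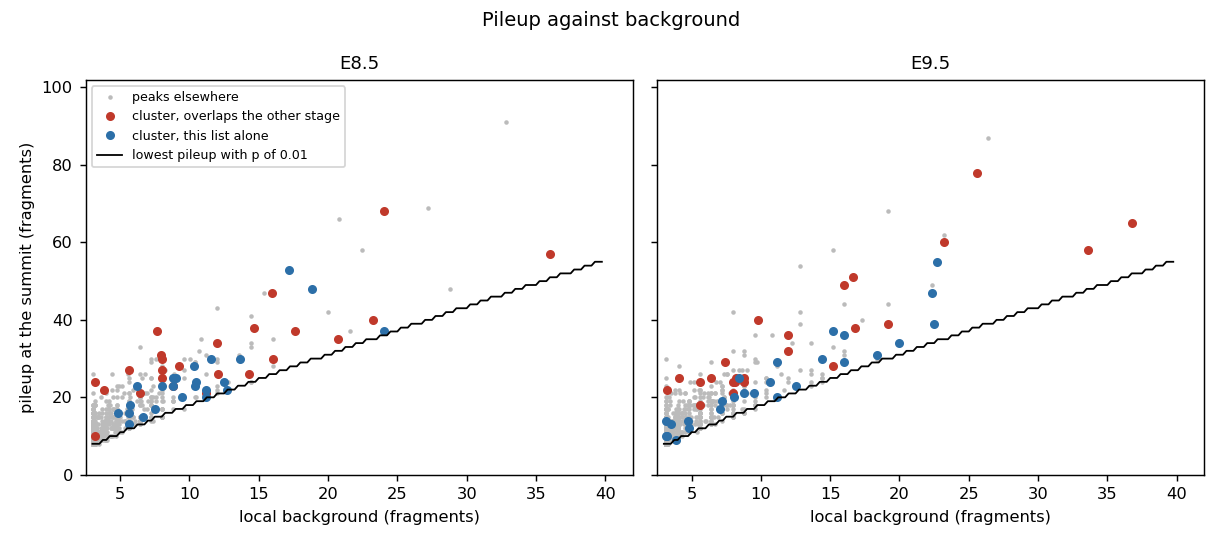
Pileup at the summit (y axis, fragments) against local background (x axis, fragments) for peaks with a pileup of at most 100 in each library, with cluster peaks coloured and other peaks grey. The line is the lowest pileup that reaches a p of 0.01, and cluster peaks lie to the right of most others, with median backgrounds of 9.87 and 9.65.

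Other windows of 1 Mb with many peaks had lower backgrounds in these lists, values that are given as a description. The median background was 4.98 in E8.5 brain and 6.01 in E9.5 brain for the window on chromosome 4 (47 and 42 peaks), 5.70 and 6.30 for the window on chromosome 8 (53 and 52 peaks), and 4.04 and 4.21 for the window on chromosome 14 (41 and 62 peaks). The share of peaks with a partner was 34.0% and 38.1%, 43.4% and 44.2%, and 68.3% and 51.6% in the same order, on both sides of the values of the Sp100 cluster.

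Listed genes of nuclear bodies, of the SAND domain family and of the interferon response were looked up across the genome. None of 32 genes of PML nuclear body proteins, among them Pml, Daxx, Atrx and the SUMO genes, had a peak in the body or within 2 kb at either stage, and none of the other SAND domain genes Aire, Deaf1, Gmeb1 and Gmeb2 had one. Of 34 genes of interferon signalling and response, 1 had a peak in E8.5 brain and 1 in E9.5 brain, against 0.964% and 1.20% of all protein-coding genes. Bst2, which encodes the antiviral membrane protein tetherin, had its E8.5 peak 1263 bp outside the body on chromosome 8, with 10 fragments at its summit (4.80 to 18.4), a 2.71-fold enrichment and q = 1. Ifit3, an interferon-induced antiviral gene on chromosome 19, had 2 E9.5 peaks, with pileups of 13 and 12, folds of 3.28 and 3.11 and q-values of 0.421 and 1. Lists of this size would hold few genes with a peak at such shares, so a count of 0 says nothing about the pathway.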

How the data were processed

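The 6mA MeDIP-seq peak lists of mouse embryonic brain, 1 library per stage, were used as deposited. Per the submitters' processing notes, cutadapt 1.9.2 and Bowtie2 2.2.4 were run and the build was mm10. Peaks were called by the authors from fragments read at both ends by MACS 2.1.1.20160309 at a p of 0.01 against 1 shared input, with at most 2 duplicates per position and local backgrounds over 1000 and 10000 bp, per the file headers. Pileup, as deposited, is a signal that counts fragments covering the summit. Fold enrichment, as deposited, is the ratio of pileup to local background, with 1 added to each. For p and q the deposited columns give −log10 p-values and −log10 q-values, and q is filled although the headers call it not calculated. The lengths and summits deposited by the authors are in bp. The handling of multiply mapped reads is not stated in these sources.

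The background was recovered as (pileup + 1) / fold - 1, and called the lowest when within 0.005 of the library's minimum. Overlap needed at least 1 bp, and genes were RefSeq bodies of GRCm38.p6 extended by 2 kb. Shares carry Clopper-Pearson and pileups Poisson intervals at 95%. Promoters were aligned locally with Biopython 1.88 (match 2, mismatch -2, gap opening -6, gap extension -1). On simulated peaks 100% of 200 planted overlaps were recovered per library. Each planted pair overlapped by construction, so this checks the code and not the recovery of peaks in these data. The named peaks are, for each member and library, the one with the highest fold, then the 8 pairs with the highest mean fold and the unpartnered peaks with a q of at most 0.05. Other pairs and peaks named were chosen after their values were seen, among them those with the extreme pileup, background or ratio. The members and gene lists were chosen with earlier results of these data known. Scripts ran in Python 3.11.15 with scipy 1.17.1, pandas 2.3.3, matplotlib 3.10.9 and numpy 2.4.6.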

Additional observations from a re-analysis of the deposited data

How the results depend on the processing

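The window held as many peaks, within 1.5 times, when peaks were placed by any base or by summit, or when the window began 100 kb earlier, a setting added after the data were examined. Stricter thresholds left fewer: at a q of at most 0.05 there were 16 E8.5 and 15 E9.5 peaks, at a q of at most 0.001 there were 10 and 12, and at a fold of at least 3 there were 8 and 8. Peaks that met a member numbered 14 rather than 38 in the E8.5 list and 13 rather than 44 in the E9.5 list when q was at most 0.05, which follows from the smaller lists. The share of E9.5 peaks with a partner was 63.2% when both lists were limited to folds at or above their medians. The other 41 of the 50 recomputed values for the window, the overlap, the medians and the gene lists stayed within 1.5 times the count or within the interval of the share or median. Of the 72 recomputed counts of single members, 53 stayed within 1.5 times. No replicate could be left out. No paired analysis was possible because each stage had 1 library. The pileup needed for a call rises with the local background, and was 8 fragments at the lowest E8.5 background and 51 at the highest of the window. No alternative depth was tried.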
